A study of Mus musculus with 4 samples.

Results

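The cytosolic sulfotransferases are the enzymes that sulfonate small molecules in the cytosol of liver cells, and 10 of their genes were followed on the microarrays of a mouse liver study: Sult1a1, Sult1b1, Sult1d1, Sult1e1, Sult2a1, Sult2a3, Sult2a5, Sult2b1, Sult3a1 and Sult5a1. They were chosen by name, with their measured values known, and each value below is therefore a description and not a test. All probes whose RefSeq transcript belongs to 1 of these genes were used, which gave 14 probes for the 10 genes, among 33767 probes for 23462 gene symbols that could be named. Another 11 sulfotransferase genes on the array (12 probes) were not on the list and serve as comparison.

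Whole liver of male mice was profiled, with 1 array for each of 4 groups. The control group was naturally aged mice without a drug. The diabetic group was an aging model of type 2 diabetes without a drug, the metformin group was the same model given metformin, and the combination group was the same model given astragalus polysaccharide together with metformin. The biguanide metformin lowers blood glucose, and the polysaccharide is a carbohydrate extract of Astragalus root. All 4 groups were thus aged, and all but the control carried the diabetes model. Sample titles carry a time of 60 d whose starting point they do not state. The sources used here do not give how diabetes was induced, the strain, the age, the doses, or whether RNA of several mice was pooled. With 1 array per group there is no estimate of the spread between mice, so no p-value is given for any difference.

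Sulfotransferases move a sulfonate group from the donor PAPS onto hydroxyl or amino groups, which usually makes the product more soluble and ends the action of a hormone or drug. Enzymes of the Sult1 family act mainly on phenols, thyroid hormones, catecholamines and estrogens, those of the Sult2 family on hydroxysteroids, bile acids and cholesterol, and Sult3a1 on amines. In mouse liver several of these genes, Sult2a1 and Sult3a1 among them, are known to be expressed far more in females than in males, a difference that follows the sex-specific pattern of growth hormone secretion. Estrogen sulfotransferase, the product of Sult1e1, is known to be low in healthy male mouse liver and raised in mouse models of diabetes.

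Values are given as scaled signals, that is, the scanner software's background-corrected intensity of a probe after the 4 arrays were brought to 1 common level. Signals of different probes cannot be set against each other, so only the same probe is compared between arrays. A probe marked by the software as not well above background is called dim. The lowest signal of any probe above background was 135 for control, 116 for diabetic, 106.7 for metformin and 111 for combination liver, and a gene that was dim on 1 array has only a bound there, written as "at least". Spots marked as outliers by the software were left out of every difference, and where such a value is printed it is named as an outlier spot. Repeated spots of the same probe gave technical SDs with a median of 0.079 to 0.089 (log2) for 1 probe compared across 2 arrays, a figure that covers the spotting and reading of an array and not the mice or the RNA work. Of the 56 values that the 14 probes had on the 4 arrays, 37 were above background, 9 were dim and 10 were outlier spots. The control and diabetic arrays each had 5 of the 10 genes above background, the metformin array 7 and the combination array 9, and 3 genes (Sult1a1, Sult1b1 and Sult5a1) were above background on all 4. In whole tissue, fewer cells that express a gene and less RNA per cell cannot be told apart.

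**Figure D1:**
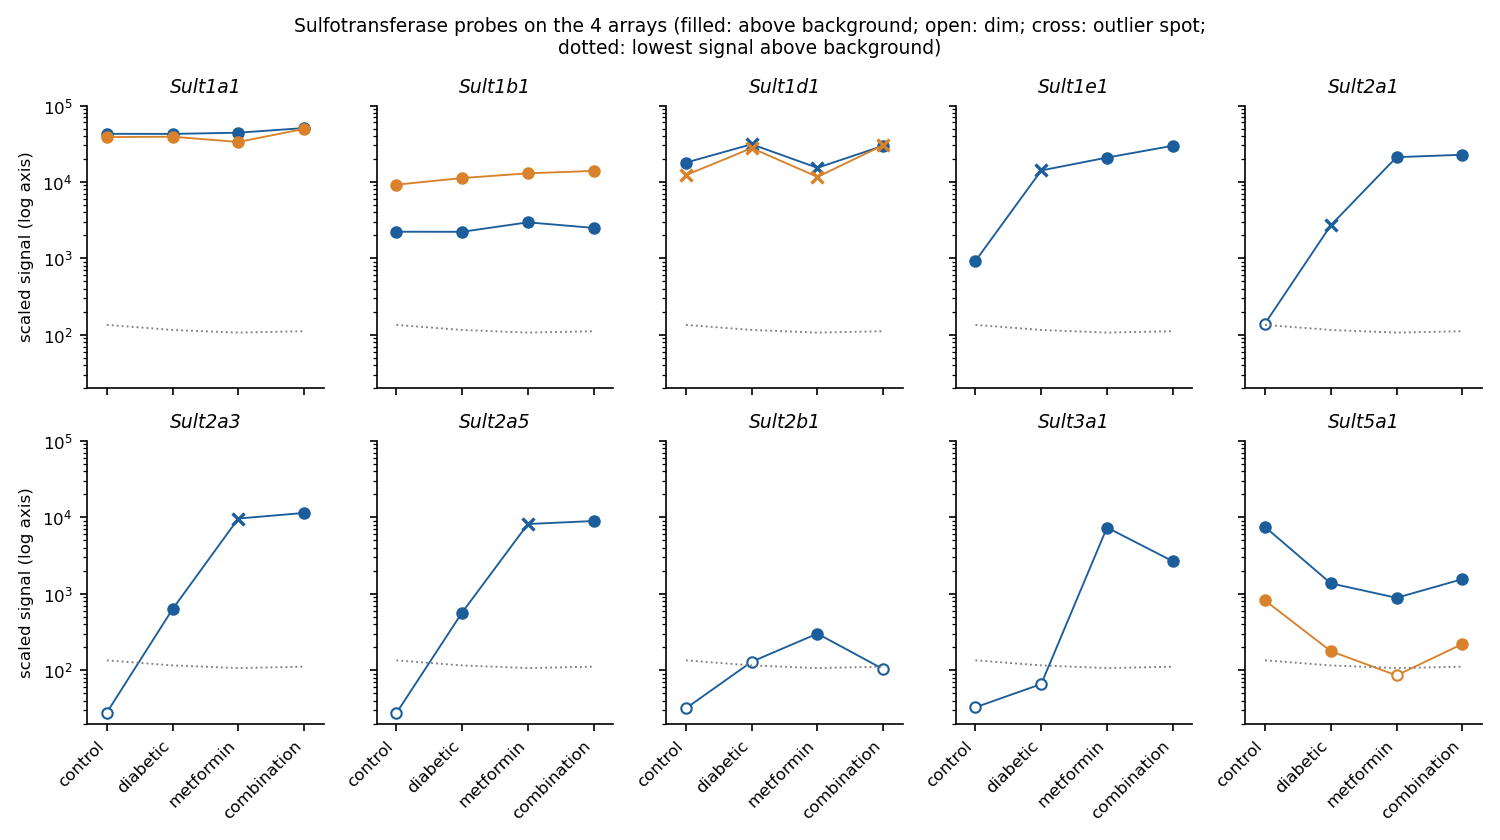
Scaled signal (log axis) of each probe of the 10 sulfotransferase genes on the arrays of the 4 groups, with 1 line per probe, filled circles for values above background, open circles for dim values, crosses for outlier spots and a dotted line for the lowest signal above background. Sult1a1 stays between 33324 and 50654 on both probes, the Sult2a genes climb from dim on the control array to between 8961 and 22668 on the combination array, and Sult5a1 is highest on the control array.

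The phenol sulfotransferases Sult1a1 and Sult1b1 hardly differed between the arrays. Sult1a1, the main enzyme for small phenols and phenolic drugs, had scaled signals of 42589 for control, 42482 for diabetic, 44066 for metformin and 50654 for combination liver with its probe 1. Probe 2 gave 38599, 39053, 33324 and 49392 in the same order. Both probes were highest on the combination array, and they disagreed on whether the metformin array lay above or below the diabetic array. As the mean of both probes, Sult1a1 differed by 0.0066 (log2; SD over the 2 probes 0.014) on the diabetic against the control array, by -0.088 (SD 0.20) with metformin against diabetic, and by 0.30 (SD 0.060) with the combination against diabetic.

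Sult1b1, which sulfonates phenols and thyroid hormones, read 2231, 2225, 2958 and 2501 in the order control, diabetic, metformin and combination with probe 1. Its probe 2 read 9203, 11237, 12961 and 13922. The control array was thus at or near the bottom on both probes, and neither probe spanned a 2-fold range. The log2 difference was 0.14 (SD over probes 0.21) for diabetic against control, 0.31 (SD 0.15) for metformin against diabetic and 0.24 (SD 0.099) for combination against diabetic. The signs of such small differences were not stable. Under at least 1 other scaling or probe choice, Sult1a1 changed sign for diabetic against control and for metformin against diabetic, and Sult1b1 for both comparisons of the combination array.

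Sult1d1, known in the mouse for the sulfonation of catecholamines such as dopamine, could be compared only between the control and the combination arrays. Probe 1 had 17887 on the control and 29728 on the combination array, a 1.66-fold difference (log2 0.73). On the diabetic and metformin arrays its spots were outliers at 31111 and 15297. Probe 2 had outlier spots on all 4 arrays, at 12254, 27745, 11637 and 30181 in the order control, diabetic, metformin and combination. On both probes the diabetic and combination arrays were the high pair and the control and metformin arrays the low pair. If the outlier spots were kept, the mean log2 difference would be 0.99 (SD over probes 0.27) for diabetic against control, -1.14 (SD 0.16) for metformin against diabetic, 0.028 (SD 0.13) for combination against diabetic and 1.17 (SD 0.29) for combination against metformin.

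Estrogen sulfotransferase was among the genes that stood furthest above the control array. The single probe of Sult1e1 had a scaled signal of 925 on the control array, 20816 on the metformin array and 29692 on the combination array. The diabetic array had an outlier spot at 14125. All 3 arrays of the diabetes model were thus far brighter than the control array, counting the outlier spot. Sult1e1 was 22.5-fold higher on the metformin than on the control array (log2 4.49), rank 14 of 13506 measured genes from the top, and 32.1-fold higher on the combination than on the control array, rank 6 of 13845. The combination and metformin arrays differed by 1.43-fold (log2 0.51). With the outlier spot kept, the diabetic array would stand 15.3-fold above the control (log2 3.93), the metformin array 1.47-fold above the diabetic (log2 0.56) and the combination array 2.10-fold above it (log2 1.07).

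The hydroxysteroid sulfotransferases of the Sult2a group went from dim on the control array to strong signals on both treated arrays. Sult2a1, which sulfonates dehydroepiandrosterone and bile acids, was dim at 140 on the control array and read 21082 on the metformin array and 22668 on the combination array. Its spot on the diabetic array was an outlier at 2705. Sult2a3, a close relative, was dim at 27.9 on the control array, read 630 on the diabetic array and 11429 on the combination array, with an outlier spot at 9659 on the metformin array. Sult2a5, another relative, was dim at 27.5, then 569 on the diabetic and 8961 on the combination array, with an outlier spot at 8189 on the metformin array. Counting the outlier spots, the 3 genes had the same order of arrays: control lowest, diabetic next, and metformin and combination close to each other at the top.

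Against the control array, the diabetic array stood at least 4.68-fold higher for Sult2a3 (log2 bound 2.23) and at least 4.22-fold higher for Sult2a5 (log2 bound 2.08). Sult2a1 has no value there without its outlier spot, and with it the bound would be 19.3-fold (log2 4.27). The combination array stood above the diabetic array by 18.1-fold for Sult2a3 (log2 4.18) and 15.8-fold for Sult2a5 (log2 3.98), rank 5 and 6 of 14108 measured genes from the top. The metformin array had outlier spots for both, which if kept would put it 15.3-fold (log2 3.94) and 14.4-fold (log2 3.85) above the diabetic array. For Sult2a1 the kept outlier spot would give 7.79-fold (log2 2.96) for metformin against diabetic and 8.38-fold (log2 3.07) for combination against diabetic. Against the control, the bounds on the combination array were at least 162-fold for Sult2a1, 84.9-fold for Sult2a3 and 66.6-fold for Sult2a5, and Sult2a1 was at least 150-fold higher on the metformin array. Between the combination and metformin arrays Sult2a1 differed by only 0.10 in log2, a difference whose sign turned with a spike-in scale (-0.19), quantile normalization, the authors' values and a scale set on each array's own probes.

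The Sult2a genes lie together on chromosome 7 and are close copies, so their probes can share signal and the 3 genes are not 3 independent observations. Their promoters are shown because the 3 genes had 1 order of arrays. RefSeq promoters were found for 9 of the 10 genes (11 promoters), with no entry for Sult2a1, and below are the 250 bases before the start of Sult2a3 (GRCm38.p6, chr7:14123049-14123298, minus strand) and of Sult2a5 (chr7:13623717-13623966, plus strand), 5′ to 3′. Capitals mark matches to GGTCATGA, an inverted arrangement of nuclear receptor core letters.
Sult2a3: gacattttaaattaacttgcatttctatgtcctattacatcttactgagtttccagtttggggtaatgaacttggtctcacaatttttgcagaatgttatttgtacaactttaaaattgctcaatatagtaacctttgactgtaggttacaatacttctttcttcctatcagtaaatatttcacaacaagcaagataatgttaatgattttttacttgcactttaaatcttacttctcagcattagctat
Sult2a5: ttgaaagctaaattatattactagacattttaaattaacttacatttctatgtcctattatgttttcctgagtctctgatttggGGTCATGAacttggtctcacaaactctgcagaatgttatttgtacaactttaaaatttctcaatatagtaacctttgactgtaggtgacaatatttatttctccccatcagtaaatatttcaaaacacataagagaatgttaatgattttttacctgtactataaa
The 2 stretches were identical at 200 of 227 aligned bases (88.1%).

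GGTCATGA, searched on both strands, began 166 bases before the start of Sult2a5 and 210 before that of the unlisted Sult2a6, and was found in 0.572% of all 32851 promoters of that length. The Sult2a3 stretch did not hold these 8 letters. Of the other listed genes, Sult1b1 and Sult1e1 held the nuclear receptor core AGGTCA (14.0% of all promoters), and Sult3a1 held the STAT motif TTCNNNGAA (7.02%). Sult1b1 held AGGTCA in its promoter 1 and not in its promoter 2. An A before GGTCATGA would make it overlap AGGTCA, which was not so in either gene. The motifs were chosen after the sequences had been seen, and a match describes letters only.

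Comparison with the unlisted copies showed which members of the family had the same order. Sult2a2 was dim at 28.2 on the control array and read 2387, 22380 and 27162 on the arrays of the diabetic, metformin and combination groups. Sult2a4 was dim at 28.6 and read 1122, 8845 and 10131. Neither had an outlier spot, so both give the metformin comparison that Sult2a3 and Sult2a5 lack: 9.37-fold above the diabetic array for Sult2a2 (log2 3.23) and 7.88-fold for Sult2a4 (log2 2.98). Probe 2 of Sult2a6 ran from dim at 105 on the control array to 25835 on the metformin array, with outlier spots at 3507 and 35289 on the diabetic and combination arrays. Probe 1 of Sult2a6 was dim at 28.9 on the control and still dim at 76.7 on the diabetic array. It read 707 on the metformin array, with an outlier spot at 1928 on the combination array.

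Sult2a7 and Sult2a8 behaved otherwise. Sult2a7 was above background on the control array at 5173 and read 19750 on the diabetic and 28172 on the combination array, with an outlier spot at 17251 on the metformin array. It was 3.82-fold higher on the diabetic than on the control array (log2 1.93). Sult2a8, an enzyme of bile acid sulfonation, was highest on the control array at 39540, against 17722, 14968 and 18978, and was 2.23-fold lower on the diabetic than on the control array (log2 -1.16). All 8 Sult2a genes lie on chromosome 7, and they did not share 1 pattern.

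**Figure D2:**
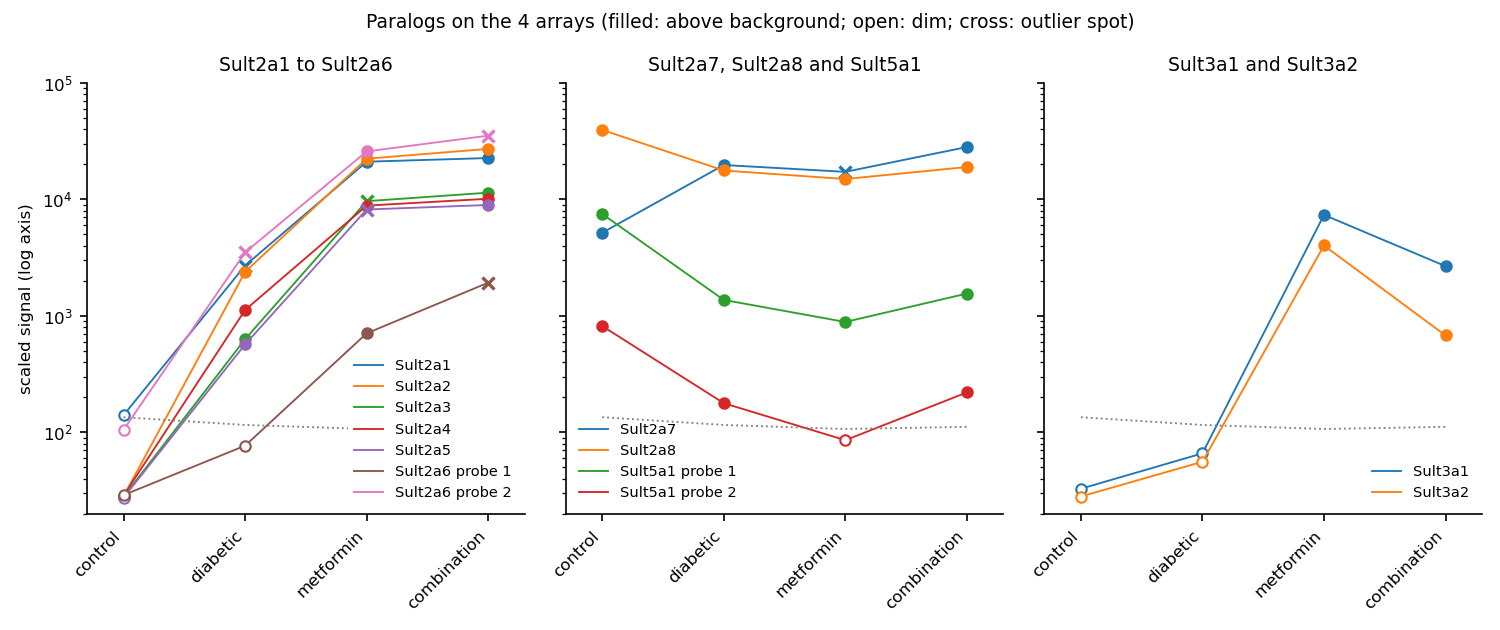
Scaled signal (log axis) on the 4 arrays of Sult2a1 to Sult2a6 (left), of Sult2a7, Sult2a8 and the 2 probes of Sult5a1 (middle), and of Sult3a1 and Sult3a2 (right), with filled circles for values above background, open circles for dim values, crosses for outlier spots and a dotted line for the lowest signal above background. Sult2a2 climbs from dim at 28.2 to 27162, Sult2a8 drops from 39540 to 17722 on the diabetic array, and Sult3a1 and Sult3a2 are highest on the metformin array at 7361 and 4021.

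Sult2b1, which sulfonates cholesterol and pregnenolone and is best known from skin, was above background on the metformin array only, at 301. It was dim at 31.7 on the control, 129 on the diabetic and 103 on the combination array. The metformin array therefore stood at least 2.33-fold above the diabetic array (log2 bound 1.22) and the combination array at least 2.71-fold below the metformin array (log2 bound -1.44). Both bounds sit close to the 2-fold line. The first falls to 0.96 with quantile normalization, to 0.97 with the authors' values and to 0.52 with another background correction, and the second becomes -0.74 with that correction. Of 8 enterocyte markers 5 were above background on the metformin array and 3 or 4 on the others, and of 7 keratinocyte markers 4 were above background there and 2 or 3 on the others. Of the enterocyte markers with a value, 3 of 5 were at least 2-fold higher and 0 lower for metformin against diabetic (log2 3.42 for Krt20, 1.61 for Vil1 and a bound of 1.25 for Lct), and 3 of 5 were lower for combination against metformin, the order of Sult2b1. The summed signal was lowest on the metformin array (76976 for enterocyte and 44134 for keratinocyte markers, against 83515 to 99487 and 48890 to 60434). With so few markers above background, such a sum follows the brightest of them and can miss a rise in the others. Of the keratinocyte markers, 0 of 4 were 2-fold apart in these 2 comparisons. Their part in the Sult2b1 signal was not tested.

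Sult3a1, an amine sulfotransferase, was dim at 32.7 on the control and 65.9 on the diabetic array, and read 7361 on the metformin array and 2671 on the combination array. Among the 5 listed genes with a value for metformin against diabetic it had the largest, at least 63.7-fold (log2 bound 5.99), and it was at least 23.1-fold higher on the combination than on the diabetic array (log2 bound 4.53). Unlike the Sult2a genes it was lower on the combination than on the metformin array, by 2.76-fold (log2 -1.46). Its neighbour on chromosome 10, the unlisted Sult3a2, was dim at 28.1 and 55.8, then 4021 and 678 on the metformin and combination arrays. Sult3a2 had the same order of arrays as Sult3a1, with a difference of 5.93-fold (log2 -2.57) between the combination and metformin arrays. These copies can share probe signal as well.

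The remaining unlisted genes included 2 that were low in signal and highest on the metformin array. Sult4a1, a brain sulfotransferase, was dim at 136 on the control and 95.8 on the combination array and read 245 and 438 on the diabetic and metformin arrays, so that the combination array stood at least 2.20-fold below the diabetic and at least 3.93-fold below the metformin array. Sult6b1 was above background on the metformin array only, at 226, as Sult2b1 was, with the combination array at least 2.03-fold below it. Sult1c1 read between 232 and 331 and Sult1c2 read 5262, 6161, 5452 and 4033 in the order control, diabetic, metformin and combination, and neither spanned a 2-fold range. Sult6b2 was above background on the combination array only, at 122.

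Sult5a1 was the only listed gene that was lower on every array of the diabetes model. Probe 1 had scaled signals of 7491 for control, 1370 for diabetic, 886 for metformin and 1553 for combination liver. Probe 2 read 817, 178 and 220 on the control, diabetic and combination arrays and was dim at 85.5 on the metformin array. Both probes had the same order, with control highest and metformin lowest. The diabetic array was 5.02-fold lower than the control (log2 -2.33, SD over the 2 probes 0.18), the 88th lowest of 13475 measured genes. On the metformin array Sult5a1 was 8.46-fold lower than on the control (log2 -3.08, probe 1 only), the 19th lowest of 13506, and on the combination array 4.23-fold lower (log2 -2.08, SD over probes 0.27), the 146th lowest of 13845. Against the diabetic array the differences were smaller: -0.63 in log2 with metformin (probe 1) and 0.24 (SD 0.089) with the combination, the latter at -0.0062 under a scale set on each array's own probes.

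Only Sult5a1 was above background on all 4 arrays with a range of at least 2 in log2, so it is the only listed gene for which genes of like pattern were sought. Among 814 other genes with that range, the nearest by root mean square distance of the 4 log2 values, centred on their mean, were Egfr, the receptor for epidermal growth factor, at 0.11, Chac1, a glutathione-degrading enzyme, at 0.22, and Gm16551 at 0.30. With 4 arrays such likeness is a description only.

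Markers of cell types differed between the arrays as well. Of 12 hepatocyte markers 11 were above background on every array, and their summed signal was 650257 for control, 519251 for diabetic, 426911 for metformin and 527470 for combination liver. Markers of acinar pancreas, 6 to 12 of 12 above background, summed to 268425, 35530, 72926 and 17148 in that order. The control array was highest, as for Sult5a1 and Sult2a8. Hepatocyte, Kupffer cell, endothelial cell, erythroid, enterocyte and keratinocyte markers were also highest on the control array, but the size of the drop differed. For diabetic against control the median log2 difference of the measured pancreas markers was -4.09, with 10 of 11 at least 2-fold lower. In the other lists just named this median lay between -0.88 (erythroid) and -0.20 (enterocyte). Among the arrays of the diabetes model, combination was lowest for the pancreas markers and highest for Sult5a1 and Sult2a8. Lymphocyte markers, 7 or 8 of 10 above background, summed to 8340, 4619, 16108 and 6100, and stellate cell and fibroblast markers, 7 or 8 of 8, to 97041, 59370, 109109 and 79921. Cholangiocyte markers, 6 of 7 above background on every array, summed to 10026, 7477, 10644 and 5589. All of these were highest on the metformin array, as for Sult3a1 and Sult2b1. The part of any of these cell types in the sulfotransferase differences was not tested.

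Counted over the list, few genes had a value in each comparison. Between the diabetic and control arrays 5 of the 10 genes had a measured difference or a bound, and 2 (Sult2a3 and Sult2a5, both as bounds) were at least 2-fold higher and 1 (Sult5a1) lower, against 8.07% higher and 5.95% lower of all 14940 genes with a value. Between metformin and diabetic 2 of 5 were higher (Sult2b1 and Sult3a1, as bounds) and 0 lower, against 13.0% and 2.89% of 15733 genes. Between combination and diabetic 3 of 6 were higher (Sult2a3, Sult2a5 and Sult3a1) and 0 lower, against 4.79% and 6.37% of 15388. Between combination and metformin 0 of 7 were higher and 2 lower (Sult2b1 and Sult3a1), against 2.01% and 12.8% of 16035. The genes were listed with these values known, so the shares are printed side by side and nothing is read from them. The comparisons are also not independent, because 3 of the 4 use the diabetic array and 2 use the metformin array.

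The median log2 difference of the listed genes measured on both arrays was 0.0066 (3 genes), -0.088 (3), 0.30 (5) and 0.24 (6) for these 4 comparisons, against -0.051, 0.026, 0.051 and -0.023 over all measured genes. These medians leave out the genes with bounds and those with outlier spots, which include the largest differences. With outlier spots kept, the scale was set anew over the probes then above background on all 4 arrays. Diabetic against control then gave 5 of 8 listed genes higher and 1 lower by 2-fold or more, against 1306 and 932 of all 15938. Sult1d1 is 1 of the 5 on that scale (log2 1.01) and falls just short of 2-fold on the main scale (log2 0.99). For metformin against diabetic the counts were 5 and 1 of 10, against 2222 and 472 of 17076, and for combination against diabetic 5 and 0 of 9, against 754 and 1061 of 16253. For combination against metformin they were 1 and 2 of 10, against 327 and 2255 of 17132. With outlier spots left out again and at the main scale, the unlisted sulfotransferases gave 3 higher and 1 lower of 7 with a value for diabetic against control. They gave 4 and 0 of 9 for metformin against diabetic, 3 and 1 of 9 for combination against diabetic, and 0 and 3 of 9 for combination against metformin. The shares of all genes at that setting were 8.07% and 5.95%, 13.0% and 2.89%, 4.79% and 6.37%, and 2.01% and 12.8%, and nothing is read from these counts.

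**Figure D3:**
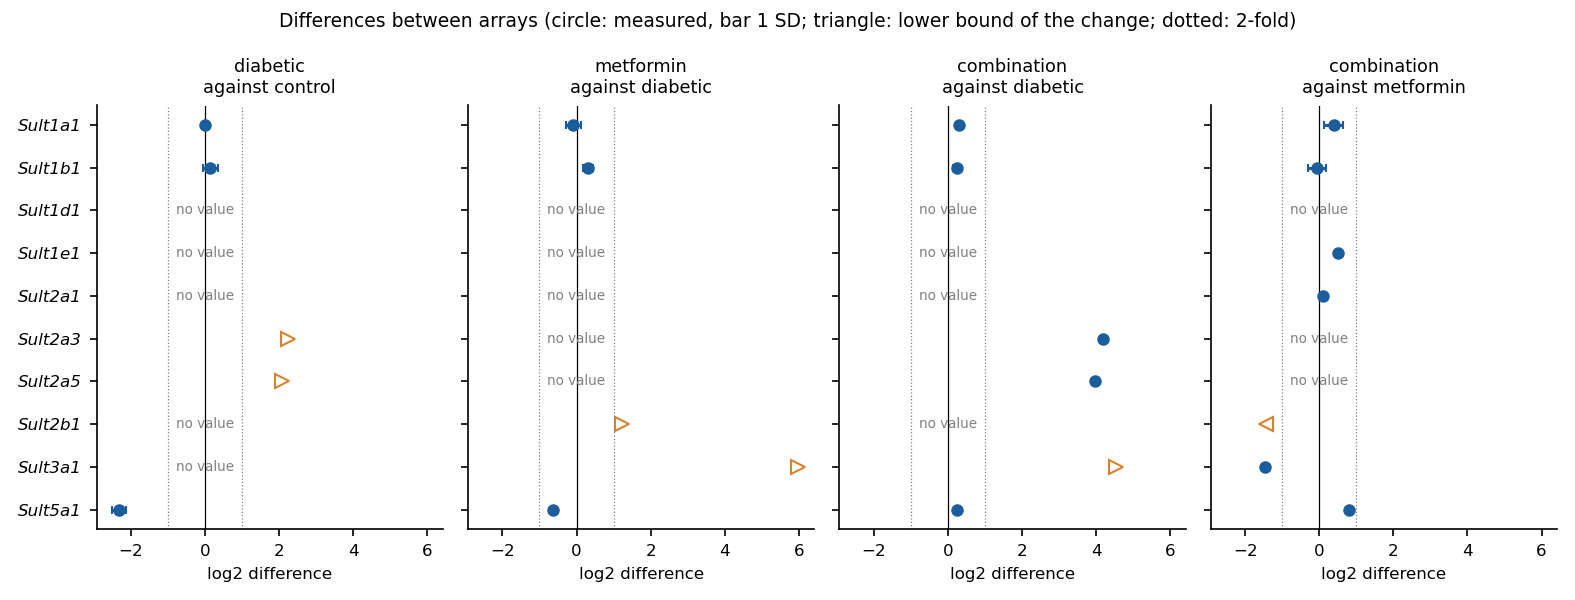
Log2 difference of each of the 10 genes in the 4 comparisons, with circles for differences measured above background on both arrays, triangles for bounds that point in the direction of the change, and dotted lines at 2-fold. Bars are 1 SD over the gene's probes where 2 probes were measured. With 1 probe the bar is the median technical SD of repeated spots, which does not cover the mice. Sult5a1 lies at -2.33 for diabetic against control, Sult3a1 at a bound of 5.99 for metformin against diabetic and Sult2a3 at 4.18 for combination against diabetic, while Sult1a1 and Sult1b1 lie between -0.088 and 0.38 throughout.

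The scale between the arrays matters for the counts over all genes. Of all genes at least 2-fold apart, 42.5% were lower for diabetic against control, 18.2% for metformin against diabetic, 57.1% for combination against diabetic and 86.4% for combination against metformin. A scale set by spike-in probes gave 30.1% and 7.12% in the first 2 comparisons, quantile normalization gave 30.6% and the authors' values 30.1% in the second, and a scale set on each array's own unflagged probes gave 78.7% in the third. The spike-in scale moved the median of all genes to 0.10, 0.34, 0.070 and -0.32 in log2, and under it no listed gene crossed the 2-fold line.

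Genes that supply the sulfonate donor and regulators of liver genes were counted against the same shares of all genes at least 2-fold apart: 8.07% higher and 5.95% lower for diabetic against control, 13.0% and 2.89% for metformin against diabetic, 4.79% and 6.37% for combination against diabetic, and 2.01% and 12.8% for combination against metformin. Counts this small are given as a description and nothing is read from them about a list. Of 21 listed genes for PAPS synthesis, sulfate transport and sulfur amino acid breakdown, 16 had a value between the diabetic and control arrays, of which 0 were at least 2-fold higher and 1 lower. For metformin against diabetic 1 of 17 was higher and 1 lower, for combination against diabetic 1 of 16 and 1 of 16, and for combination against metformin 0 and 1 of 19. Papss2, which makes PAPS in liver, had scaled signals of 23779, 16706, 19836 and 26221 with its brighter probe and 946, 499, 845 and 1590 with the other, in the order control, diabetic, metformin and combination. The diabetic array was lowest on both. As a mean of both probes Papss2 differed by -0.72 (log2, SD over probes 0.29) for diabetic against control and 1.16 (SD 0.72) for combination against diabetic.

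Slc13a4, a sulfate carrier, read 561, 212, 973 and 261 in the order control, diabetic, metformin and combination, with metformin highest as for Sult3a1, and differed by 2.20 in log2 between metformin and diabetic and by -1.90 between combination and metformin. Csad, which diverts cysteine sulfinate to taurine instead of sulfate, read 39580, 39378, 18147 and 9344 and was 4.21-fold lower on the combination than on the diabetic array (log2 -2.08). Sulfatases remove sulfate groups again: of the 13 listed sulfatases and their activators, 1 of 9 was at least 2-fold higher for diabetic against control (Sumf2, log2 1.05; 8.07% of all genes), 1 of 8 lower for metformin against diabetic (2.89%) and 1 of 9 lower for combination against diabetic (6.37%). The lower gene was Arsg, a lysosomal sulfatase, in both comparisons, with log2 differences of -1.11 and -1.86.

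Nuclear receptors and other regulators of liver genes, several of them known to act on sulfotransferase genes, made up a list of 29. Between the diabetic and control arrays 28 had a value, with 3 at least 2-fold higher and 2 lower, against 8.07% and 5.95% of all genes. The xenobiotic receptor gene Nr1i2 differed by 0.044, 0.10 and 0.26 in log2 for diabetic against control, metformin against diabetic and combination against diabetic, and the bile acid receptor gene Nr1h4 by -0.12, -0.34 and 0.025. Nr1i3, the constitutive androstane receptor, had 21605, 21251, 22690 and 33196 with probe 1 and 4837, 4709, 5098 and 12530 with probe 2 in the order control, diabetic, metformin and combination, so that only the combination array stood out, by 1.03 in log2 (SD over probes 0.54) against diabetic.

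Of the regulators tied to growth hormone signalling, Cux2 and Socs2 passed 2-fold for diabetic against control, while Ghr (log2 -0.70), Stat5a (-0.37), Stat5b (-0.14) and Bcl6 (0.19) did not. Cux2, a female-biased repressor in mouse liver, had 208 for control, 1253 for diabetic, 656 for metformin and 1898 for combination liver, a log2 difference of 2.59 for diabetic against control. Socs2, a target and inhibitor of growth hormone signalling, had 15349 on the control, 2759 on the diabetic and 7263 on the combination array with its probe 2, and an outlier spot at 2447 on the metformin array. It was 5.56-fold lower on the diabetic than on the control array (log2 -2.48). Foxa3, a liver forkhead factor, differed by -1.22 in log2 in the same comparison. Esr1, the estrogen receptor, was above background on all 4 arrays with probe 3 of 6 only, at 1221, 815, 330 and 297 in the order control, diabetic, metformin and combination, a log2 difference of -1.46 for combination against diabetic. Its other probes had dim values or outlier spots. Probe 4 went from 566 on the control to dim at 65.5 on the diabetic array. Probes 2 and 5 had outlier spots on the diabetic array at 5438 and 6920. They read 4007 and 4191 on the combination array, the direction of probe 3. Probe 6, near the floor, went from dim at 81.6 on the diabetic array to 119 on the combination array, the opposite direction. Nfe2l2, the regulator of the oxidative stress response, differed by 2.41 for diabetic against control on a probe for a non-coding transcript, while its messenger RNA probe had outlier spots at 11213 and 12432.

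Other genes known to differ by sex in mouse liver were set beside Sult2a1 and Sult3a1. Of 18 female-biased genes, 15 had a value for diabetic against control, with 9 at least 2-fold higher and 1 lower and a median of 1.15 over the measured ones. For metformin against diabetic 4 of 14 were higher and 0 lower, and for combination against diabetic 5 of 15 and 0. Of 18 male-biased genes, 0 were higher and 5 lower of 10 for diabetic against control (median -0.95), 2 and 1 of 12 for metformin against diabetic, and 0 and 4 of 11 for combination against diabetic. These lists were drawn up with earlier results of the arrays known, and their background is the same as printed above for each comparison.

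Examples from these lists were picked after their values had been seen. Hao2, a hydroxyacid oxidase, had 218, 159, 2964 and 262 in the order control, diabetic, metformin and combination, so that metformin alone was high. A1bg was dim at 30.4 and then read 360, 1977 and 787, highest with metformin and lower with the combination, the order of Sult3a1. On the male-biased side the steroid enzyme gene Hsd3b5 went from 20289 on the control array to dim at 89.5 on the diabetic array, was 297 on the metformin array and dim at 87.4 on the combination array. The transporter gene Slco1a1 had 18072, 623, 1010 and 447 with probe 1.

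**Figure D4:**
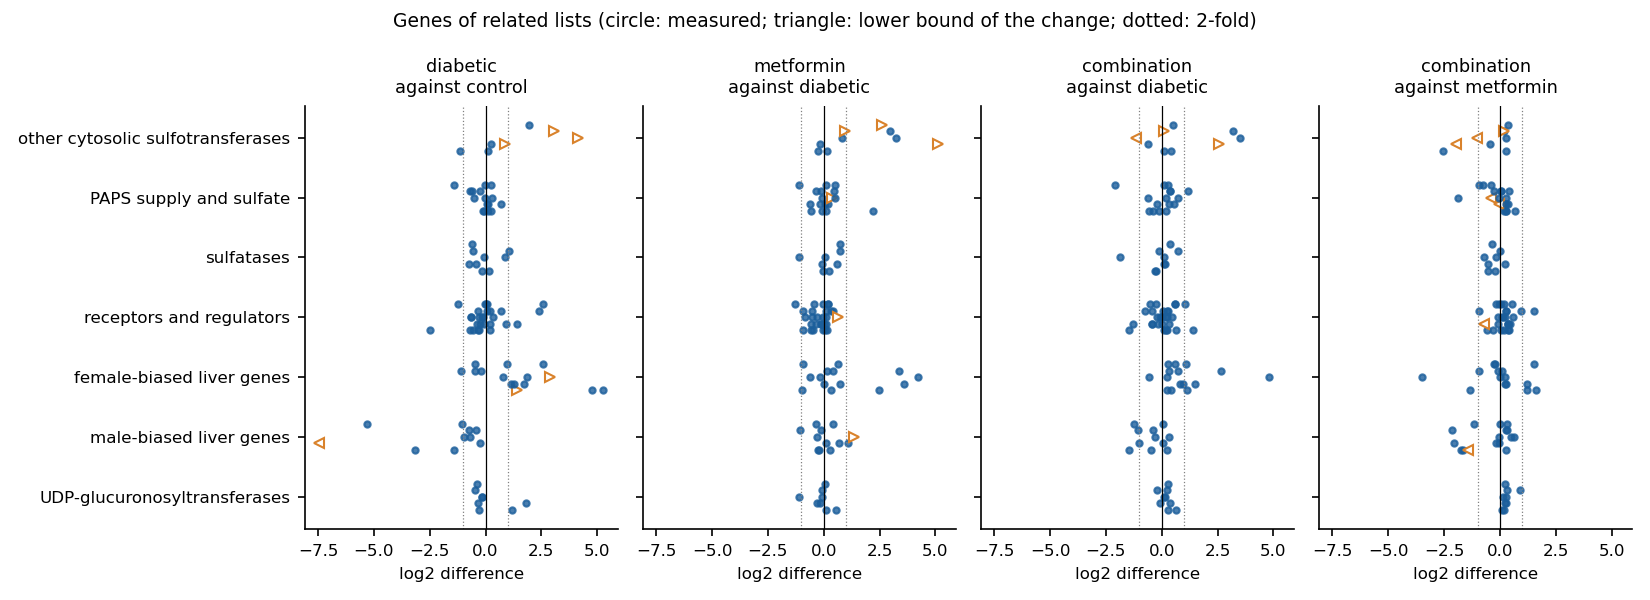
Log2 difference of each gene with a value in 7 lists related to the sulfotransferases (rows), in the 4 comparisons (panels), with circles for measured differences, triangles for bounds and dotted lines at 2-fold. The 16 measured genes of PAPS supply and sulfate lie between -1.40 (Slc13a4) and 0.67 (Slc26a2) for diabetic against control, while 9 of 15 female-biased genes lie at least 2-fold higher and 5 of 10 male-biased genes at least 2-fold lower.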

How the data were processed

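Total RNA of whole liver was labelled with Cy5 and hybridized to 1-colour Agilent arrays, 1 per group, per the labels' protocols. Each scanner file holds spot intensities as deposited by the authors, made with Feature Extraction 11.5.1.1 on a grid for mm9 per the file headers (version 10.7 of Agilent Feature Extraction per the submitters' processing notes). The authors' deposited value table holds log2 values, which correlated with the log2 processed signal of the same array at 0.999 to 1.00 (slopes 0.986 to 1.01). Direction and scale are thereby known, and its centring (column median 7.84 on every array) has no stated method.

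The main values were log2 processed signals, already background-corrected, less the 75th percentile over the 24363 probes unflagged and above background on all 4 arrays. Outlier spots were 3.31%, 4.66%, 5.35% and 2.18% of 59305 spots in the order control, diabetic, metformin and combination, and were left out. A probe was above background if the software marked 50% or more of its spots so. Differences of a gene were averaged over the probes above background on both arrays. A gene dim on 1 array has a bound against the higher of its own signal and the lowest signal above background there. A gene counted as apart at 2-fold or more. The arrays correlated at 0.950 to 0.965.

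Probes were named by accession through the RefSeq table of GRCm38.p6, which named 59.7% of 56605 probes. Its build differs from the grid's, so only promoter positions, which belong to that table, are printed. The genes and lists were chosen with earlier results of these data known. All 10 genes are named, with genes of the related lists at least 2-fold apart (up to 6 per list) or whose role is explained. With 1 array per group no test was run, and the number of arrays limits the precision. In all, 10 alternatives of scaling, background correction, filters, outlier spots, values and probe choice were tried. The files used here have no mean signal, so normexp with an offset of 50 (limma 3.58.1, R 4.3.3) ran on the median signal. Other steps ran in Python 3.11.15 and were tested on simulated data.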

Additional observations from a re-analysis of the deposited data

How the results depend on the processing

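Of 219 values of single genes under 10 alternatives, 214 stayed on their side of the 2-fold line, 4 lost the 2-fold call and 1 gained it. Direction was checked only for genes called in the main analysis, and some smaller differences changed sign, as given above. The 4 are all bounds of Sult2b1, and the 1 is Sult5a1 for combination against metformin without a filter on dim probes (log2 1.09). No called gene changed direction. Of 80 counts, 65 stayed within 1.5 times the main count. For diabetic against control, 2 genes were at least 2-fold higher, against 5 with outlier spots kept and the scale set anew. There were 4 without a filter on dim probes and 0 with genes above background on all arrays only. For metformin against diabetic, 2 were higher, against 1 with quantile normalization, with normexp and with the authors' values, 5 with outlier spots kept and 0 with genes above background on all arrays only. In that comparison 0 were lower, against 1 (Sult1d1) with outlier spots kept. For combination against diabetic, 3 were higher, against 5 with outlier spots kept and 0 with genes above background on all arrays only. For combination against metformin, 2 were lower, against 1 with normexp and 0 with genes above background on all arrays only, and 0 were higher, against 1 with outlier spots kept and 1 without a filter. Genes above background on all arrays leave 3 of the 10, which by construction drops the Sult2a genes and Sult3a1. No paired analysis was possible because each group has 1 array. Genes dim on an array have bounds only, and 10 of 56 probe values were lost as outlier spots.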

Other observations

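UDP-glucuronosyltransferases, which conjugate many of the same phenols, steroids and bile acids with glucuronic acid, are another family of conjugating enzymes. Of 18 listed genes 8 had a value for diabetic against control, with 2 at least 2-fold higher and 0 lower, against 8.07% and 5.95% of all genes. Ugt1a6a had scaled signals of 1007, 3543, 2872 and 3368 in the order control, diabetic, metformin and combination (log2 1.81 for diabetic against control), and Ugt1a10 had 2301, 5180, 7583 and 8094 (log2 1.17). For metformin against diabetic 0 of 8 were higher and 1 lower (13.0% and 2.89% of all genes), and for combination against diabetic 0 of 9 were 2-fold apart (4.79% higher and 6.37% lower of all). The lower gene was Ugt3a2, at a mean log2 difference of -1.12 (SD over probes 1.44) from probes that disagreed: probe 1 had 22287 and 5075 on the diabetic and metformin arrays and probe 2 had 1296 and 1213. These genes were named after their values had been seen.

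Target genes of xenobiotic and bile acid receptors gave 4 at least 2-fold higher and 0 lower of 15 for diabetic against control, 3 and 1 of 13 for metformin against diabetic, and 1 and 0 of 14 for combination against diabetic, beside the same shares of all genes. Cyp7a1, which starts the classic route from cholesterol to bile acids, had 1451, 17666, 11328 and 23566 in the same order, so that control alone was low (log2 3.61 for diabetic against control). Slc51b, a bile acid exporter subunit, had 431, 1650, 4881 and 1903, with metformin highest as for Sult3a1. Nqo1, a quinone reductase, had 774, 2696, 5697 and 4976. Cyp3a11, a classic target of the receptor encoded by Nr1i2, differed by -0.037 for diabetic against control and by -0.26 for metformin against diabetic.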
